A study of Caenorhabditis elegans with 2 samples.

Results

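The loci described here are the 612 nuclear genes of C. elegans that Ensembl annotates with the biotype tRNA in assembly WBcel235, known at UCSC as ce11. Membership was set by annotation alone, out of 46890 nuclear genes, though this class was chosen with earlier results of these data known. Each gene body was widened by 200 bp on both sides, and a locus was called bound when the summit of a ChIP-seq peak, the base of highest enrichment, lay in that window. The peaks were those of the AT-hook factor ATTF-3, and came from 1 group with 2 biological replicates. Both replicates were whole animals of strain RW12296, in which attf-3::TY1::EGFP::3xFLAG had been made on chromosome III by CRISPR, so that the factor carries a fluorescent protein and epitope tags. The animals had been synchronised as starved L1 larvae after bleaching and were young adults of 63 hours. Precipitation was with an antibody against GFP; the antibody label itself reads attf-3. No untagged or other control group was analysed here, so the level of these loci in a control precipitation is not given. Whole animals mix germline and somatic tissues, and a peak does not say in which of them the DNA was precipitated.

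Transfer RNA genes are transcribed by RNA polymerase III. Their promoter lies inside the gene: the A box and the B box, short conserved stretches of the body, are bound by the factor TFIIIC, which brings TFIIIB to the DNA just upstream, and a run of T bases ends transcription. The worm genome carries many identical copies of most tRNA genes, scattered over all chromosomes, in introns and between genes. The X chromosome holds many of them. AT-hook proteins such as ATTF-3 are named for a short motif that contacts the minor groove of AT-rich DNA.

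ATTF-3 peaks lay at 156 of the 612 tRNA genes. This is 25.5%, with a 95% Wilson interval of 22.2 to 29.1%, against 3.83% of all nuclear genes measured in the same way. The 46890 nuclear genes include 15363 piRNA genes with a median length of 21 bp, of which 13 were bound, and these lower the background share. The widened tRNA genes cover 273 kb, or 0.272% of the genome, and held 146 of the 1737 joint peaks, or 8.41%. The joint peaks are the authors' conservative list kept at an irreproducible discovery rate (IDR) of 0.01, a measure of how well 2 rankings of peaks match. Each replicate also has its own thresholded list. Replicate 1 had a summit at 64 tRNA genes, 10.5%, against 2.21% of all nuclear genes, and replicate 2 at 83, 13.6%, against 2.51%. The mean of the replicates' shares was 12.01% ± 2.20 (SD, n = 2). No test was run on any difference below: intervals cover counting error over genes or peaks only, and genes that share a peak or a sequence are not independent.

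The sequences of 5 strongly bound loci show the parts to which the summits are referred. Each runs 5′ to 3′ on the strand of the gene, from 60 bp before the gene to 25 bp after it, in the RefSeq copy of WBcel235 (ce11). Capitals mark the matches to the A box, searched as TNGNNNAG, and to the B box, searched as GTTCNANNC. The summit lay at base 3 of the printed sequence for C04E7.t1, at base 19 for Y39B6A.t9, at base 85 for F15G9.t1, at base 140 for T23F1.t1 and at base 74 for W09G10.t1. These loci thus show summits upstream of the gene, inside it and past its end.
C04E7.t1 (Leu, chrX:353230-353396, minus strand): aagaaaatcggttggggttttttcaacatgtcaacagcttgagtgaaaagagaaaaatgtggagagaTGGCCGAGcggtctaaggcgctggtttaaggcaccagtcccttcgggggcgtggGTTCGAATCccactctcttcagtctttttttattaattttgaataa
Y39B6A.t9 (Phe, chrV:19125984-19126141, plus strand): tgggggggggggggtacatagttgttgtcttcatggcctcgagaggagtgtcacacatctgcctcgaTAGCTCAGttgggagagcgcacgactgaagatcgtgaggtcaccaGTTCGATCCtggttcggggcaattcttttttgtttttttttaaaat
F15G9.t1 (Ala, chrX:9743529-9743685, plus strand): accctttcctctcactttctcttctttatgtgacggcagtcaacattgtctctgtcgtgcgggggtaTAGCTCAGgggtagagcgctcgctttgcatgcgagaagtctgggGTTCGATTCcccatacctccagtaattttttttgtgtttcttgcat
T23F1.t1 (Lys, chrV:15465026-15465183, plus strand): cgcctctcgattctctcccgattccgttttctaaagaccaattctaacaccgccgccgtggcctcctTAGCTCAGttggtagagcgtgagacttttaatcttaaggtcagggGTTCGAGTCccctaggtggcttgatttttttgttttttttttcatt
W09G10.t1 (His, chrII:3521462-3521618, minus strand): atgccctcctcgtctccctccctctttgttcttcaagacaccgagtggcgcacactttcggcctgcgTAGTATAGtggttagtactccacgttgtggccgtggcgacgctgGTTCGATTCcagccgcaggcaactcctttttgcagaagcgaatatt

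The A box letters were found on the gene's own strand in 513 of 612 tRNA bodies (83.8%), on the other strand in 6.70%, and in 19.4% of windows of the same length placed 1000 bp upstream. The B box letters were found in 587 bodies (95.9%), in 3.59% on the other strand and in 2.12% of the upstream windows. Their median start positions were 8 and 52, counted from 1 at the 5′ end of the gene, so that the matches did not overlap at these positions. Bound and unbound genes held both boxes. With the A box letters, 136 of 513 genes were bound (26.5%), and without them 20 of 99 (20.2%, interval 13.5 to 29.2%). With the B box letters the share was 25.6% of 587 genes, and without them 6 of 25 (24%). The terminator letters TTTT were present on the gene's strand within 20 bp past the gene in 602 genes, of which 154 were bound, and absent in 10, of which 2 were bound.

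Copies of the same gene body were called bound at some places and not at others. A large set of identical bodies is a proline tRNA gene with 24 copies, of which 11 were bound, the highest share of any such set. With each peak given to its nearest tRNA gene alone, 5 of these copies were bound (20.8%), so the ranking rests on peaks shared with a neighbour. T23F1.t2 is such a copy, since its summit lies closer to the lysine gene T23F1.t1. Its body is printed once, with the A and B box matches in capitals, beside the 50 bp upstream of 3 bound copies, those with the highest signal, and of 3 unbound copies, those with no summit or the lowest signal in the ranked list of the series. All sequences run 5′ to 3′ on the gene's strand, from RefSeq WBcel235 (ce11). These copies share the body and differ in the flank, and over all copies the AT share of this flank overlapped widely: its median was 58% (52 to 70%) at the bound and 60% (50 to 74%) at the unbound copies. Of the 13 unbound copies, only 1 had no summit in that ranked list. For most of them, unbound thus means below the threshold, not without a peak. How reads within identical bodies were placed is not given in the sources.
shared proline body (chrV:15465225-15465296, minus strand): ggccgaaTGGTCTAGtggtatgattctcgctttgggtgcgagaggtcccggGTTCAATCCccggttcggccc
T23F1.t2 upstream, bound (chrV:15465297-15465346, minus strand): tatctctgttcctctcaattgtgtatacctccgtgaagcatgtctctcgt
H06A10.t1 upstream, bound (chrX:13512042-13512091, minus strand): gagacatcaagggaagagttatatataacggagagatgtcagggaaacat
F46G11.t2 upstream, bound (chrX:5801283-5801332, minus strand): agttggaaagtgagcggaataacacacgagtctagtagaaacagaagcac
Y71H2AM.t1 upstream, not bound (chrIII:2711661-2711710, plus strand): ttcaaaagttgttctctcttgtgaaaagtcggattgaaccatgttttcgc
ZK678.t3 upstream, not bound (chrX:15751370-15751419, plus strand): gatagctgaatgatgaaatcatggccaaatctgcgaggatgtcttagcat
R11G10.t1 upstream, not bound (chrV:13509643-13509692, plus strand): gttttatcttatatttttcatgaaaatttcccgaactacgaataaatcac

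Some tRNA genes face each other across a short spacer, and for several such pairs the summit lay between them. The pair W09D6.t2 and W09D6.t1, a pair of identical proline genes in an intron of rsa-2 with the summit at base 97 of the printed stretch, was chosen as an example after its values were seen. Capitals mark the gene bodies, W09D6.t2 (on the minus strand) first, and the lower-case stretch is the spacer, again from RefSeq WBcel235 (ce11). The joint signal was 122.1; replicate 2 listed the peak in its own thresholded list with a signal of 76.3, and replicate 1 had 48.4 in its ranked list.
W09D6.t2 and W09D6.t1 (chrIII:11066848-11067098, plus strand): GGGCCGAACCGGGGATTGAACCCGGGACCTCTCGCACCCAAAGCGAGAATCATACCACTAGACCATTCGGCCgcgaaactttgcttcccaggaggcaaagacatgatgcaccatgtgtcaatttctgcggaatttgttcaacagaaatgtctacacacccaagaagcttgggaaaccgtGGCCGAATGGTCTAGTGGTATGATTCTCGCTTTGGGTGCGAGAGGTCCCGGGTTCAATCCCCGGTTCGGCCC

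By class, tRNA genes had the highest bound share in the joint list among the classes of more than 1 gene compared. The small nuclear RNA genes followed with 27 of 129 (20.9%, 14.8 to 28.7%) and the small nucleolar RNA genes with 66 of 346 (19.1%, 15.3 to 23.5%), and both intervals overlap that of the tRNA genes. In the replicates' own lists the order was not the same: the mean was 14.3% ± 1.64 (SD, n = 2) for snRNA and 14.3% ± 1.02 for snoRNA genes, above the 12.01% ± 2.20 of tRNA genes. Protein-coding genes, whose windows are longer, had 5.74% and the ncRNA biotype 4.30%. Transfer RNA pseudogenes, whose median length of 73 bp is close to the 72 bp of tRNA genes, were bound in 5 of 209 cases, 2.39% with an interval of 1.03 to 5.48%, and in 4 cases in each replicate's own list. The strongest of these, D1046.t1, had a signal of 455.8, above that of any annotated tRNA gene; it was named after its values were seen.

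**Figure D1:**
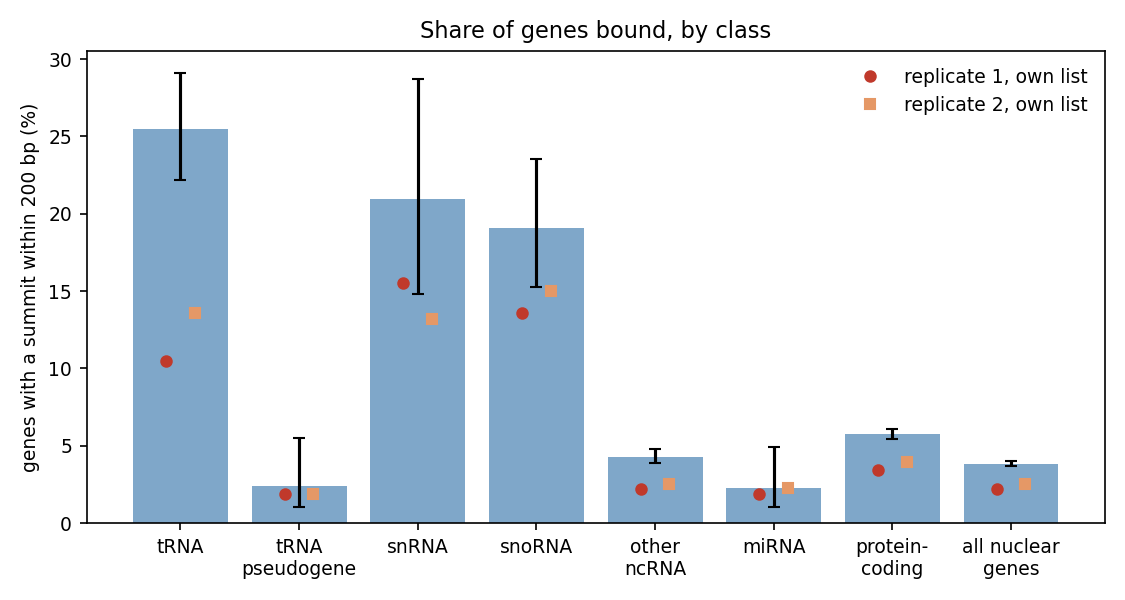
Share of genes with an ATTF-3 summit in the body or within 200 bp (%), by gene class. Bars give the joint list with 95% Wilson intervals and points give each replicate's own thresholded list. The tRNA bar stands at 25.5%, with replicate points at 10.5 and 13.6%. Those of snRNA genes are at 15.5 and 13.2%, and those of snoRNA genes at 13.6 and 15.0%.

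The few other genes transcribed by RNA polymerase III that were read by name differed among themselves. Small nuclear RNA and ncRNA genes transcribed by this polymerase were not read apart from the rest of their classes. None of the 16 genes named rrn-4, which encode 5S ribosomal RNA, was bound in any of these lists, and a limit of 3 counts in place of 0 allows a share of up to 18.75%. The RNase P RNA gene rpr-1 and the RNase MRP RNA gene mrpr-1 were bound in the joint list and in both replicates' own lists. How reads that map to several places were treated is not given in the sources used here, and both the 5S genes and most tRNA genes are repeated.

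A list of 68 protein-coding genes was read at promoters, with a summit within 500 bp of the 5′ end. It covers RNA polymerase III and its factors, tRNA processing and aminoacyl-tRNA synthetases. It also holds 4 rpoa genes, for subunits shared or of RNA polymerase I, so it is wider than the tRNA gene pathway. The synthetase genes were not split by where in the cell the enzymes act. Of the 68 genes, 6 were bound (8.82%, 4.11 to 17.9%), against 6.07% of all protein-coding genes, so the interval includes the share of all protein-coding genes. The strongest was rpc-1, the largest subunit of RNA polymerase III, with a joint signal of 683.9, 328.0 in replicate 1 and 355.1 in replicate 2, and a summit 158 bp upstream. The other 3 listed polymerase III genes, the 5 listed genes of TFIIIB and TFIIIC, the 4 rpoa genes and the gene for the repressor MAF1 had no summit. The list does not hold every subunit of these complexes, and genes outside it were not read here. In the SNAPc group, whose complex acts at small nuclear RNA promoters, 1 of 7 was bound, snpc-3.4, with 152.3 and only in replicate 2's own list (87.0). In the same group snpc-3.1 was not bound in the joint list but had a summit in replicate 1's own list (68.8). Of 15 tRNA processing genes, tsen-34, a subunit of the tRNA splicing endonuclease, was bound at 104.8, with 51.6 and 67.4 in the replicates. Among those not bound, trm-2A had a summit in replicate 2's own list (66.4). Of 32 aminoacyl-tRNA synthetase genes 3 were bound: ears-2 with 241.6 (132.2 and 107.1 in the replicates), nars-1 with 123.1 and kars-1 with 117.0, the last pair in replicate 1's own list only.

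The strongest tRNA peak was at F15D3.t1, a lysine gene between genes (chrI:11579706-11579778, minus strand), 1065 bp from the 5′ end of timm-23. Its joint signal was 416.0, the 240th highest of the list, with 220.2 in replicate 1 and 207.6 in replicate 2, and the summit was at position 30. C04E7.t1, a leucine gene 283 bp from the 5′ end of sor-3, followed with 299.9, from 133.9 and 173.3. Y39B6A.t9, a phenylalanine gene between genes, had 274.6, from 131.9 and 147.4, and was the sole bound gene of 14 for that amino acid. In both the summit was upstream, by 58 and 42 bp.

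T21B4.t1, an isoleucine gene in an intron of the collagen gene col-85, on the opposite strand, had a signal of 242.4 with 133.5 and 108.2 in the replicates, and its summit was 7 bp upstream. T02G6.t1, a serine gene in an intron of vab-10, which encodes spectraplakins that tie together the cytoskeleton, had 220.5 with 123.7 and 101.5, and its summit was 79 bp upstream. F15G9.t1 and F15G9.t2, alanine genes in an intron of him-4, which encodes the extracellular matrix protein hemicentin, shared a peak of 220.1 with 105.6 and 119.4, centred at position 25 of F15G9.t1. In these loci the replicates were close to each other and neither was always the higher.

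T23F1.t1 (lysine) and T23F1.t2 (proline) lie tail to tail and shared a peak of 204.1, with 106.2 and 99.1 in the replicates, whose summit was in the spacer. W09G10.t1, a histidine gene in an intron of the collagen gene col-72, had 194.8, with 94.3 and 102.4. The collagen gene col-99 held the arginine gene F29C4.t1, with 167.6 and replicates at 97.1 and 68.0. M02F4.t2 (glutamate) and M02F4.t1 (glycine) lie head to head and shared a peak of 187.6, with 77.3 and 110.8, whose summit lay 45 bp before M02F4.t1.

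The remaining strong loci were T07D10.t1 for alanine (191.0), F35H8.t1 for arginine (190.8), F41D9.t3 for asparagine (180.5), the serine pair F42A10.t1 and F42A10.t2 (176.8), C28G1.t1 for glutamate (173.9), F57F5.t1 for isoleucine (167.4), K08E7.t1 for lysine (165.9), the proline pair C16B8.t2 and C16B8.t3 (164.7), F21C3.t1 for lysine (161.5) and ZC455.t1 for serine (155.9). The 20 strongest tRNA peaks covered 25 genes of 12 amino acids. Of these peaks 17 were in both replicates' own lists, 1 in that of replicate 1 alone and 2 in that of replicate 2 alone. The summit was inside the gene body at 11 of them, 9 lay at intronic genes and 6 on X.

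At the low end of the bound genes, T06H11.t3, an arginine gene in an intron of unc-58, had a signal of 5.63 from a peak that overlaps a stronger listed peak. Of the 146 peaks, 9 overlapped a stronger one, with signals from 3.80 to 37.1, and T06H11.t3 was the only gene bound by such a peak alone. The next lowest were Y40H7A.t2 for histidine (66.3, with 39.6 and 42.1 in the replicates' ranked lists) and Y95B8A.t1 for tryptophan (75.0, with 46.8 and 42.5). Just outside the window, the unbound genes nearest to a summit were Y38E10A.t1, F22B7.t4 and C44B7.t1, at 29, 42 and 60 bp from the edge of the widened body.

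In signal, tRNA peaks were of middle rank. Their median was 111 (quartiles 94.4 and 135), against 122.8 (95 and 209.6) for all joint peaks. When the joint peaks were ordered by signal into 10 groups of near equal size, none of the 173 in the strongest group, which begins at 599, lay at a tRNA gene, and only 3 of the 174 in the next did. From the fourth to the eighth group the number was between 18 and 26, and in the weakest it was 12. Nearly all listed peaks had the same width, with median and quartiles of 320 bp at tRNA genes and elsewhere, so a summit is a finer guide to position than a peak edge.

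Summits fell mainly inside the tRNA gene or just before it. Of the 146 summits, 86 (58.9%) were in a gene body, 47 upstream, 38 of them within 50 bp, and 13 downstream. The median position was 15 (quartiles -8.75 and 41.75), which is the last base of an A box match that starts at its median position. For the 119 peaks with 1 tRNA gene in reach and no stronger overlapping peak, 80 were in the body (67.2%), 33 upstream and 6 downstream, with a median position of 19. In the replicates' own lists the median position was 31.5 in replicate 1 and 18 in replicate 2.

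**Figure D2:**
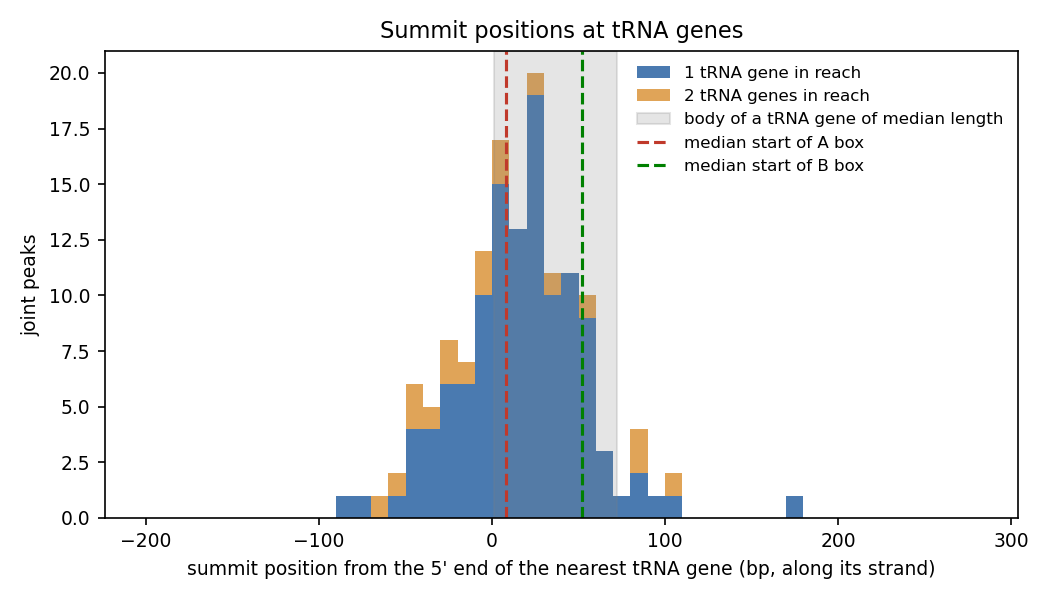
Position of joint summits relative to the nearest tRNA gene, in bp along the gene's strand with 1 at its 5′ end, in bins of 10 bp. Peaks that overlap a stronger one are left out. Most summits stand on or just before the grey band that marks a body of median length, 72 bp, with the median starts of the A and B boxes, 8 and 52, as dashed lines.

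These peaks were mostly apart from protein-coding promoters. Of the 146, 29 (19.9%) had a protein-coding 5′ end at most 500 bp from the summit, and of the 1591 other joint peaks 950 (59.7%) did. At more than 2000 bp from any such end there were 356 joint summits, of which 61 (17.1%) were at tRNA genes. Among the tRNA genes themselves, 33 of 104 near a protein-coding 5′ end were bound (31.7%, 23.6 to 41.2%) and 123 of 508 farther away (24.2%, 20.7 to 28.1%), and the intervals overlap.

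Base composition around the summits was measured over 101 bp. The median AT share was 48.5% (45.5 to 53.5%) at tRNA peaks and 53.5% (47.5 to 59.4%) at the other joint peaks. Most tRNA summits lay in or just before a gene, so these windows take in much of the tRNA body. The 50 bp upstream of bound tRNA genes had a median AT share of 54% (48 to 58.5%) and those of unbound genes 60% (52 to 66%). In the replicates' own lists the medians were 54% for listed and 58% for unlisted genes, in both replicates. On X they were 56% at bound and 62% at unbound genes, and on autosomes 54% and 56%, so the difference was smaller there. Medians of the tRNA body itself were low at bound (40.7%) and unbound (41.7%) genes alike. Downstream medians were 74% in both sets over all genes and on X, but 70% at bound and 74% at unbound genes on autosomes, a wider gap than upstream. Base composition can change how DNA is recovered and sequenced, and its part in the difference was not tested.

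The X chromosome holds 276 of the 612 tRNA genes. On it 56 were bound, 20.3% (16.0 to 25.4%), against 100 of 336 on the autosomes, 29.8% (25.1 to 34.9%). Replicate 1's own list gave 7.25% on X and 13.1% on autosomes, and replicate 2's gave 11.6% and 15.2%. By chromosome the share ran from 20.3% on X, 21.8% on V and 22.5% on IV to 31.8% on I, 35.1% on II and 40.6% on III (29.5 to 52.9%), and neighbours in this order had overlapping intervals. The tagged attf-3 gene is itself on III, and whether this bears on the share there was not tested.

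Seen from the peaks, X stood apart. Of its 155 joint peaks 51 lay at tRNA genes, 32.9% (26.0 to 40.6%), against 95 of 1582 on the autosomes, 6.01% (4.94 to 7.29%), where single chromosomes ran from 5.01% on IV to 6.85% on III. X thus holds the most tRNA genes and the fewest joint peaks of all nuclear chromosomes.

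**Figure D3:**
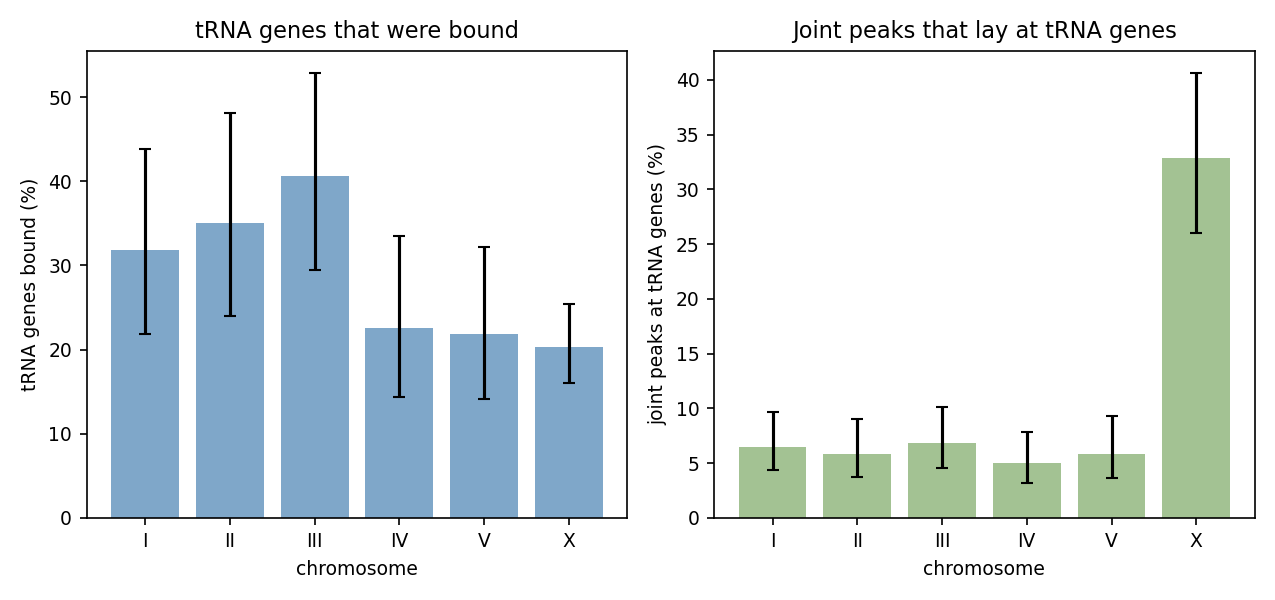
Left, share of tRNA genes bound in the joint list on each chromosome (%). Right, share of joint peaks that lay at tRNA genes (%). Bars are shares with 95% Wilson intervals; X is lowest on the left at 20.3% and highest on the right at 32.9%.

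Genes in introns of protein-coding genes and genes between them were bound at shares that overlap. Of 283 intronic tRNA genes 79 were bound, 27.9% (23.0 to 33.4%), and of 319 intergenic ones 73, 22.9% (18.6 to 27.8%); of 10 that overlap an exon 4 were bound. The replicates' own lists gave 9.54 and 13.4% in introns and 11.3 and 13.2% between genes, so the order turned in replicate 1. Intronic genes on the strand of their host had 25.6% of 160, and those on the opposite strand 31.1% of 122. On autosomes introns were ahead in the joint list, with 34.0% of 188 (27.6 to 41.1%) against 23.7% of 139 intergenic genes (17.4 to 31.5%). On X introns were behind, with 15.8% of 95 (9.81 to 24.4%) against 22.2% of 180 (16.8 to 28.8%). The intervals overlap in both cases. On autosomes replicate 1's own list turned the order, with 12.8% in introns against 14.4%, and replicate 2's gave 16.0% against 13.7%. On X both own lists had introns behind, at 3.16 and 8.42% against 8.89 and 12.8%. The 29 tRNA genes interrupted by an intron of their own were bound in 9 cases (31.0%, 17.3 to 49.2%), the rest in 25.2%.

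Clusters were defined as tRNA genes with at most 1000 bp between neighbours, and on X few genes of the larger ones were bound. Genes alone were bound in 100 of 376 cases (26.6%), those in clusters of 2 in 45 of 156 (28.8%), and those in clusters of 3 or more in 11 of 80 (13.75%, 7.85 to 23.0%). The replicates' own lists gave 8.75 and 6.25% for the larger clusters and 10.4 and 15.7% for genes alone. Of the genes in larger clusters 57 are on X, with 5 bound (8.77%, 3.81 to 18.9%), and 23 on autosomes, with 6 bound (26.1%, 12.5 to 46.5%). For genes alone the share was 22.0% on X (15.9 to 29.5%) and 29.4% on autosomes (23.9 to 35.5%). Among 22 clusters of 3 or more, 8 had a bound gene and in 0 were all bound. The largest with a bound gene, F22F1.t2 to F22F1.t7 on X, holds 6 genes over 2263 bp, and only F22F1.t7, for isoleucine, was bound, with 89.2 and ranked signals of 46.4 and 42.4. Its neighbours F22F1.t2, F22F1.t3, F22F1.t5 and F22F1.t6 had joint ranked signals from 48.4 to 60.2, and F22F1.t4 had no summit in any ranked list.

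Some neighbours within 500 bp were bound together, but most pairs of each orientation had no bound gene. Of 42 head-to-head pairs 11 had both genes bound, 0 had 1 bound and 31 had none, and in 9 pairs (21.4%, 11.7 to 35.9%) a summit lay in the spacer, as in the W09D6 pair printed above. Of 33 pairs in the same direction 5 had both bound and 3 had 1 bound, and of 21 tail-to-tail pairs 3 and 4. Since each body is widened by 200 bp, a summit near close genes counts for both, and 38 of the 156 bound genes shared 20 peaks in this way. In 6 of these peaks the summit was inside a tRNA gene body and in 14 outside any. Head-to-head pairs were closest, with a median gap of 148.5 bp, against 178 bp for tail-to-tail pairs and 333 bp for pairs in the same direction.

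All amino acids with more than 1 annotated gene had a bound gene. Proline genes had the highest share, 17 of 42 (40.5%, 27.04 to 55.5%), then leucine with 13 of 39 (33.3%), lysine with 13 of 46 (28.3%) and serine with 11 of 39 (28.2%). Phenylalanine had the lowest, 1 of 14 (7.14%, 1.27 to 31.5%), after tyrosine with 3 of 19 (15.8%) and tryptophan with 2 of 12. The intervals of neighbours in this order overlapped. The place of proline rests on shared peaks: with a peak counted for the nearest tRNA gene alone, 10 proline genes were bound (23.8%, 13.5 to 38.5%) and 12 leucine genes (30.8%), which then had the highest share. The replicates' own lists differed for glycine, with 1 of 55 genes in replicate 1 and 8 in replicate 2, and for cysteine, with 1 and 4 of 13, and both had few glutamine genes, 0 and 1 of 27. The selenocysteine gene K11H12.t1, the only gene for that amino acid, was not bound in the joint list, but had a signal of 57.6 in replicate 1's own list; its joint ranked signal was 87.0.

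The tryptophan genes include those of the classical amber suppressors, mutant tRNAs that read through a stop codon. They were picked for mention with their values known. Of 7 tryptophan genes with a sup symbol, 1 was bound: sup-5, in an intron on III, with a joint signal of 128.2 and 58.6 and 61.7 in the replicates. The others had lower or no joint ranked signals: sup-24 had 81.1, sup-7 70.5, sup-21 64.2 and sup-28 54.7, while sup-29 and sup-33 had no summit in the joint ranked list.

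Bound and unbound copies were also compared over all sets of identical bodies. The 612 genes have 200 distinct body sequences, 143 of them with 1 copy and 57 with 2 or more, which cover 469 genes. Of the 57 sets, 42 held bound and unbound copies, 13 only unbound and 2 only bound copies. The largest, a glycine gene, had 8 of 29 copies bound, a lysine gene 8 of 25, the proline gene printed above 11 of 24, an aspartate gene 5 of 21 and a glutamate gene 4 of 20. Over the 20 sets with at least 10 copies the bound share ran from 0% to 45.8% with a median of 26.5%, and the set at 0% encodes phenylalanine. With each peak given to its nearest gene alone the highest share was 40%, in a glutamate set, and that of the proline set 20.8%. Genes with no identical copy were bound in 31 of 143 cases (21.7%, 15.7 to 29.1%), those with 2 to 9 copies in 26.3% and those with 10 or more in 26.8%. Reads that lie wholly within identical bodies cannot be told apart, and the part of read placement in which copies were listed was not tested.

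**Figure D4:**
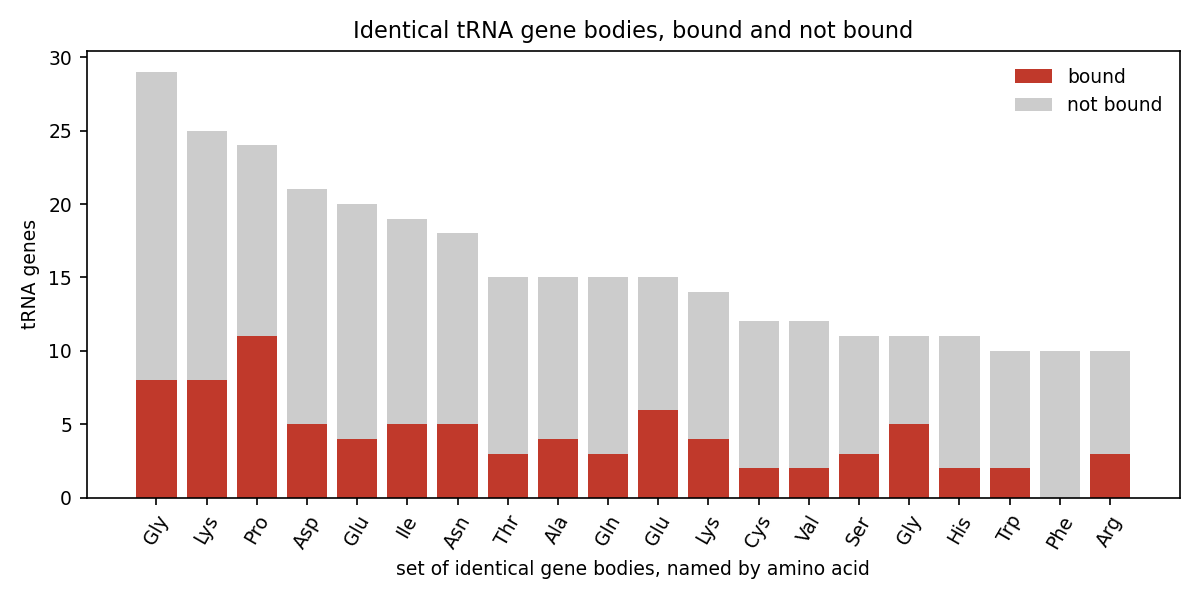
The 20 sets of at least 10 tRNA genes with identical bodies, named by amino acid and ordered by size. Red is the number of copies bound in the joint list and grey the number not bound; in 19 of the 20 sets both colours are present.

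Many loci below the threshold still had a listed summit. The ranked list of the series, which holds 71287 peaks before the threshold, had a summit at 494 of the 612 tRNA genes (80.7%), against 47.7% of all nuclear genes and 97 of 209 tRNA pseudogenes (46.4%). Among the 456 unbound genes 338 had such a summit, with a median signal of 56.9 (42.1 to 70.3), against 118 (96.3 to 137) for the bound genes, a difference that the threshold makes. The highest unbound was T23H4.t1 for glutamate, with 130.0, whose ranked signals of 30.3 in replicate 1 and 95.2 in replicate 2 were far apart. C43G2.t1 for leucine followed with 117.1 (35.3 and 77.8) and F14B6.t2 for methionine with 100.1 (33.5 and 55.8). In these 3 genes replicate 2 was the higher. At 69 tRNA genes no ranked list had a summit.

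The replicates listed overlapping but unequal subsets of the bound genes. Of the 156, 40 were in both own lists, 20 in that of replicate 1 alone, 32 in that of replicate 2 alone, and 64 in neither. The shared genes were 62.5% of replicate 1's list and 48.2% of replicate 2's. Outside the joint list were 4 genes of replicate 1 and 11 of replicate 2. In the ranked lists, 151 bound genes had a signal in both replicates, with medians of 54.0 and 61.9; replicate 2 was the higher at 88 and replicate 1 at 63. Across these genes, which are not independent and share libraries and peaks, Spearman's rho was 0.504 and Pearson's r of the log10 signals 0.680, as a description.

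**Figure D5:**
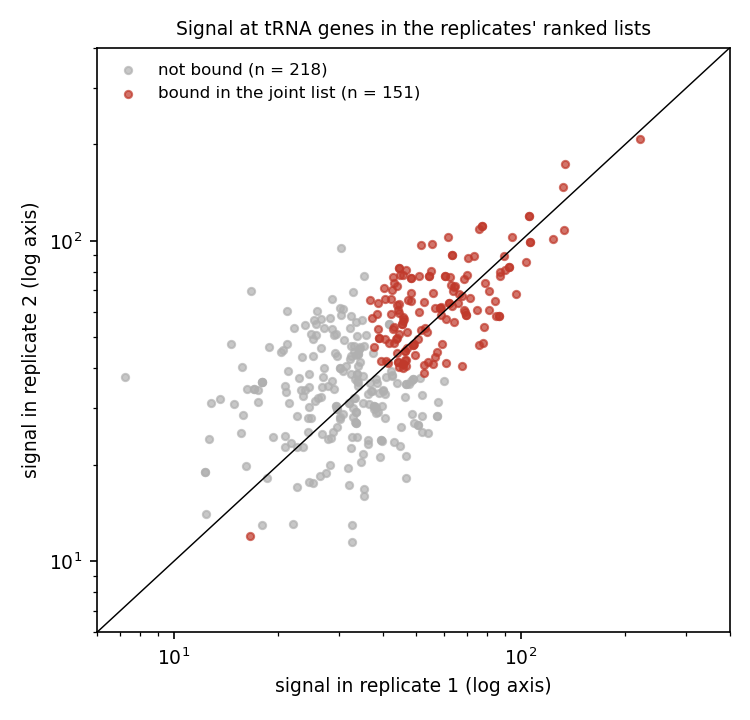
Signal at tRNA genes in the ranked list of replicate 1 (x, log axis) and replicate 2 (y, log axis); each point is a gene with a summit in both lists and the line marks equal signal. The 151 bound genes (red) have medians of 54.0 and 61.9, and the 218 unbound genes (grey) of 32.0 and 34.1; the split follows from the threshold, which uses both replicates.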

How the data were processed

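ChIP-seq peaks from 2 replicates of 1 group were grouped by their labels. The authors deposited 8 peak lists: ranked by IDR, or thresholded on it. Each deposited peak has a signal value of unstated scale, a scaled IDR score capped at 1000 and a summit offset, and the −log10 of the global IDR is in the authors' ranked lists. Fragmentation was by sonication and the assembly ce11, per the labels; for the aligner, the peak caller and multiply mapped reads, the treatment is not given in the sources. Without counts, depth is unknown. Signals describe or rank peaks within a list only. The series' ranked lists also have 4 unnamed per-replicate columns, which were not used; replicate values come from each replicate's own lists. The ranked list of the series holds 1820 peaks that reach the lowest score of the 1737 joint peaks, 830, and only the latter were used.

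Genes came from Ensembl release 115; sequences and amino acids, given for 607 of the genes, from RefSeq's WBcel235; anticodons were not used, and 22 mitochondrial tRNA genes were left out. Shares have Wilson intervals. Python 3.11.15, pandas 2.3.3, numpy 2.4.6, statsmodels 0.14.6, Biopython 1.88 and matplotlib 3.10.9 were used, and the assignment of summits was tested on simulated data. Alternatives changed the list, the threshold, the widening, the overlap rule, the cluster distance and the members. Genes named are those of the 20 strongest tRNA peaks, the 3 weakest bound, the 3 unbound nearest a summit and the largest cluster with a bound gene, beside those said to be chosen after their values were seen, the highest unbound genes and genes singled out by small counts. Members and lists were chosen with earlier results of these data known. Nothing says how far the biological replicates were separate beyond their labels.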

Additional observations from a re-analysis of the deposited data

How the results depend on the processing

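The bound count of 156 was 160 with the list from pooled reads and stayed between 123 and 167 with a widening of 50 or 500 bp, any overlapping base of the peak, genes over 500 bp from a protein-coding 5′ end, nearest genes only, or without peaks that overlap a stronger one. It was 64 to 83 with 1 replicate's own list, which is shorter, 66 with the joint list cut at its median signal, 86 with the summit in the body and 31 of 143 for genes with no identical copy; each of these keeps fewer peaks or genes by construction. The last and the exclusion of overlapping peaks were chosen after seeing the data.

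Intronic genes were 283 of all 612 tRNA genes and 50.6% of the bound genes. The latter share was 42.2 to 45.8% with 1 replicate's list and 40.9% among the stronger joint peaks. It was 46.5% with the summit in the body, 53.7% away from protein-coding 5′ ends and 41.9% with no identical copy. Settings that leave out genes also change the set with which such a share is compared. X holds 276 of all 612 tRNA genes and 35.9% of the bound genes. The latter share was 31.25 to 38.6% with 1 replicate. It was 22.6% with no identical copy, a set of genes whose own share on X is not that of all tRNA genes. Genes in clusters were 236 of all 612 tRNA genes and 35.9% of the bound genes. The latter share was 27.8% with a widening of 50 bp, 23.3% with the summit in the body and 28.1% with nearest genes only. It was 28.9 to 39.1% with 1 replicate. For clusters by 500 and 5000 bp it was 28.2% and 48.1%, but these distances also change how many of all tRNA genes count as clustered. The median summit position, 15, was 18 to 31.5 with 1 replicate. With the summit in the body it was 26, but this setting leaves out the 47 upstream and 13 downstream summits by construction. The cause was not tested for the intron and X shares. No paired analysis was possible because there is 1 group. With 2 replicates, an SD is a rough guide.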

Other observations

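The bound tRNA pseudogenes had signals of 455.8 (D1046.t1), 191.3 (C52E12.t1), 142.5 (T08B2.t1), 131.7 (Y94H6A.t1) and 95.5 (Y69A2AR.t3). None of these summits lay in the window of an annotated tRNA gene, and Y69A2AR.t3 was the only one of them with a protein-coding 5′ end under 500 bp away, at 308 bp.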
